A study of Mus musculus with 4 samples.

Results

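The genes described here are 34 genes of the trophoblast lineage, the cells that form the placenta, among the 49997 genes of an RNA-seq count table from mouse embryonic stem cells (ESCs). They were chosen by name, as regulators of the trophectoderm, effectors of the HIPPO pathway and genes of the placenta, by a rule that uses no measured value. Earlier results of these data were known when they were chosen. The ESCs belonged to the E14 line and carried a tdTomato transgene under the MERVL promoter. They were infected with a lentivirus expressing a short hairpin RNA, either a scrambled control (shScramble) or one against Ythdf2 (shYthdf2), and stable lines were selected with puromycin, so that both groups shared the transgene, the virus and the drug. Each group had 2 libraries, which the study describes as independent replicates. The labels do not say which of the hairpins against Ythdf2 was used. The comparison asked how transcript levels changed when YTHDF2, a protein that binds N6-methyladenosine (m6A) on mRNA and promotes its decay, was depleted.

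The trophectoderm is the outer layer of the blastocyst and gives rise to the trophoblast. In the outer cells of the early embryo the HIPPO kinases are inactive, so the coactivators YAP and TAZ enter the nucleus, where they join the DNA-binding factor TEAD4 and switch on Cdx2 and Gata3. ESCs come from the inner cells instead, and in them the core regulators of trophoblast stem cells are largely silent, although several factors of the same network are also expressed in pluripotent cells.

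Esx1, Ets2, Wwtr1 and Tead4 were lower in shYthdf2 than in shScramble, to 37.0%, 53.0%, 63.7% and 59.0% of the control level. They made up 14.8% of the 27 genes tested, and 0 were called higher. Among all genes tested, 1.49% were lower and 2.43% higher. Of the 5 genes used as defining markers of trophoblast stem cells, Cdx2 and Elf5 had at most 14 reads in any library. The others were read more often, Eomes 544 to 766 times, Tfap2a 165 to 265 times and Gata3 64 to 141 times. The hormone genes of trophoblast giant cells that were examined were not read or nearly so. The 4 genes called lower were among the 7 most highly expressed of the set per exonic length in shScramble. Genes with fewer reads, such as Dlx3 (log2 fold change -2.24) and Ly6a (1.37), differed more than Tead4 (-0.76) without passing the threshold.

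The promoters of 3 of the 4 lower genes are printed to show the sequence context of the genes that changed, with that of the keratin gene Krt8 as a contrast in base composition. They come from RefSeq (GRCm38.p6), which had a promoter window of 250 bases before to 50 bases after the start for 23 of the 34 genes, in 29 windows, but none for Tead4. The last 150 bases before each annotated start are given in the direction of transcription. The stretches lie at chrX:137120327-137120476 on the minus strand (Esx1, which also has an annotated start farther upstream), chr16:95702257-95702406 on the plus strand (Ets2), chr3:57575911-57576060 on the minus strand (Wwtr1) and chr15:102004343-102004492 on the minus strand (Krt8). Capitals mark CG dinucleotides and, in Wwtr1, a match to the TEAD core motif GGAATG that begins 136 bases before the start.
Esx1: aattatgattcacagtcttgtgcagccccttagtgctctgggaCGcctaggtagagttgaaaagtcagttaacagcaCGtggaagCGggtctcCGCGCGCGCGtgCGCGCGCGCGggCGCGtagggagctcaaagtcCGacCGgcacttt
Ets2: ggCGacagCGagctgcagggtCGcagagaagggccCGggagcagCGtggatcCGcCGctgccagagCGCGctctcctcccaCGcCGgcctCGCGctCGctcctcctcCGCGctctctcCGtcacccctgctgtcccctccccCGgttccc
Wwtr1: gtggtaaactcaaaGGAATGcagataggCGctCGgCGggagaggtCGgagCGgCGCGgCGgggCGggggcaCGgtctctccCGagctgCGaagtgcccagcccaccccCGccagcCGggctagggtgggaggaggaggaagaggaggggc
Krt8: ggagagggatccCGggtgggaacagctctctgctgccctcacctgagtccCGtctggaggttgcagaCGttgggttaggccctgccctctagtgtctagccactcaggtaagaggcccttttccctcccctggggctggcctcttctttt
The stretches of Esx1, Ets2 and Wwtr1 hold 17, 18 and 14 CG dinucleotides, and that of Krt8 holds 3. Over the full windows the counts were 24 for Esx1, 30 for Ets2, 20 for the Wwtr1 start shown and 6 for Krt8, beside a median of 7 over all 32851 windows. Members that were not called had windows as rich or richer, with 49 in Yap1, 32 and 29 in Gata2 and 22 in Gata3. The TEAD motif GGAATG, searched on both strands, was present in 5 of the 29 windows (17.2%, in Elf5, Gata2, Wwtr1 and Yap1) and in 14.7% of all windows. The 5 include 2 overlapping windows of Wwtr1 that hold the same match. The AP-2 motif GCCNNNGGC was present in 8 windows (27.6%) against 16.6% of all, and the GATA motif AGATAA in 3 (10.3%) against 11.2%. A match describes the letters of a window and is not evidence of binding.

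Between 31113006 and 36422510 reads were counted per library, and 3 reads, the limit that a count of 0 allows, came to between 0.083 and 0.095 CPM (read counts scaled to a common library total by TMM). The log2 fold change of Ythdf2 itself was -1.55 (edgeR adjusted p = 0.00069). The 10 ESC markers, among them Pou5f1, all passed the filter and summed to 7416 and 7288 CPM in shScramble and 6990 and 6516 CPM in shYthdf2. Of these, 1 was called lower and 0 higher, beside 1.49% and 2.43% of all genes tested. At an edgeR unadjusted p under 0.05, 3 were lower and 0 higher, beside 9.8% and 11.0% of all genes. The defining markers of trophoblast stem cells (Cdx2, Eomes, Elf5, Gata3, Tfap2a) summed to 30.4 and 29.2 CPM against 28.6 and 24.9 CPM, most of it from Eomes, and the 4 markers of trophoblast giant cells had no reads. Markers of the rare 2-cell-like cells in ESC cultures summed to 30.0 and 48.6 CPM in shScramble and to 66.2 and 185 CPM in shYthdf2. Of the 7 tested, 2 were called higher, beside 2.43% of all genes tested. The part of these cells in the differences given here was not tested. In bulk RNA, fewer cells of a type and less RNA per cell cannot be told apart. Fold changes and p-values come from edgeR's quasi-likelihood test over the 18341 genes that passed a filter on low counts, with Benjamini-Hochberg adjustment over all of them and a threshold of 0.05.

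Of the 34 genes, 31 had at least 1 read, 27 passed the filter and 19 had a mean of at least 1 CPM. A gene could pass through the group in which it was high. Dlx5, Elf5, Plac1 and Sct were read but not tested, and Synb, Hsd3b6 and Pcdh12 had no read in any library. Other genes share 73.4% of the 150-base windows of the Synb transcripts, and reads with several placements were left out of the count. Pcdh12 overlaps Rnf14 on the opposite strand, and the effect on its count was not measured. Of the 27 tested genes 4 passed as lower (14.8%) and 0 as higher, beside 1.49% lower and 2.43% higher among all genes tested. At an unadjusted p under 0.05, 9 were lower (the 4 with Gata3, Dlx3, Krt8, Krt18 and Rhox5) and 3 higher (Tfap2c, Yap1 and Ly6a), beside 9.8% and 11.0% of all genes. Both shYthdf2 libraries lay below both shScramble libraries in 12 of the 27 genes and above them in 7, beside 25.5% and 26.2% of all genes, and the groups overlapped in 8. The median log2 fold change was -0.26, from -2.24 to 1.37, against 0.0019 over all genes tested.

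**Figure D1:**
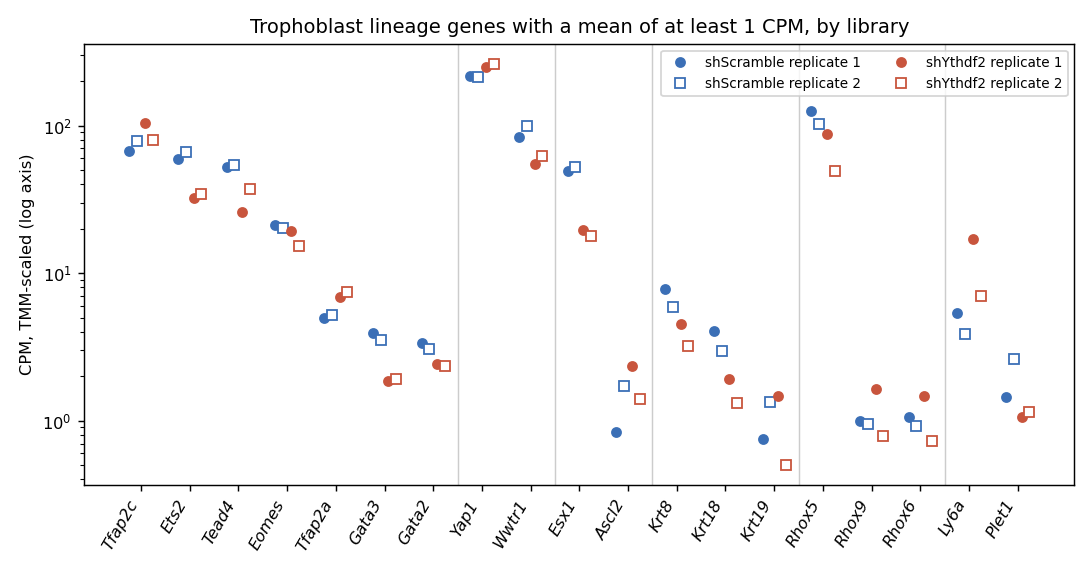
Levels of the 19 trophoblast lineage genes with a mean of at least 1 CPM, one point per library (TMM-scaled CPM on a log axis; grey lines part the subgroups, in order: trophectoderm regulators, HIPPO coactivators, later placental transcription factors, keratins, Rhox genes, and placental surface genes). In Esx1 the shYthdf2 libraries lie at 19.7 and 17.8 CPM, below the shScramble libraries at 49.1 and 52.1 CPM, while in Krt19 and Ascl2 the groups overlap.

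The level per kilobase of exonic length (RPKM) spanned a wide range in shScramble. Rhox5 was the highest at 141 RPKM, followed by Yap1 at 48.6, Esx1 at 28.3, Tfap2c at 19.7, Wwtr1 at 19.1, Ets2 at 17.6 and Tead4 at 17.4 RPKM. Neighbours among the last 4 differed by less than the SD between their libraries. Eomes stood at 5.57 RPKM and every further gene was lower still. The median of the tested members was 1.10 RPKM against 3.5 RPKM over all genes tested, and Pou5f1 stood at 719 RPKM.

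Among the 9 regulators of the trophectoderm, 8 were tested and 2 were lower, beside 1.49% of all genes tested. Tead4, the TEAD factor needed to form the trophectoderm, had 1898 and 1714 reads in the controls and 891 and 1328 in the knockdown, or 52.7 and 54.4 CPM against 26.1 and 37.1 CPM. Both knockdown libraries were below both controls, with the larger drop in replicate 1. The means were 53.6 ± 1.2 and 31.6 ± 7.81 CPM (SD, n = 2), which edgeR gave as a log2 difference of -0.76 (SE 0.16, adjusted p = 0.0375). The size of the difference rested in part on one library, being -1.04 without shYthdf2 replicate 2 and -0.53 without shYthdf2 replicate 1, and it passed in all 13 other settings. In mm10, Tead4 occupies positions 128227143 to 128300813 of chromosome 6, minus strand.

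Ets2, an ETS family factor that sustains trophoblast stem cells, had 2138 and 2081 reads in the controls against 1095 and 1234 in the knockdown. Its levels of 59.4 and 66.1 CPM against 32.0 and 34.5 CPM did not overlap, and the libraries within each group were close. The means were 62.7 ± 4.73 and 33.3 ± 1.73 CPM (SD, n = 2), or -0.91 on the log2 scale (SE 0.12, edgeR adjusted p = 0.0061). Ets2 occupies positions 95702407 to 95721049 of chromosome 16, plus strand, and is annotated a second time on an extra contig. Reads placed equally well on both copies would have been left out of the count in all libraries, an effect that was not measured.

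GATA and AP-2 factors act beside TEAD4 in the early trophectoderm. Gata3, which is switched on in parallel with Cdx2, was at 3.92 and 3.52 CPM in shScramble and 1.87 and 1.93 CPM in shYthdf2, separated groups with a log2 fold change of -0.97 that missed the threshold (SE 0.30, edgeR adjusted p = 0.108). Gata2, which drives trophoblast giant cell genes, was at 3.36 and 3.08 CPM against 2.43 and 2.35 CPM (log2 fold change -0.43, adjusted p = 0.46). The AP-2 factors lay on the other side of zero. Tfap2c, which is also expressed in ESCs, was at 67.7 and 77.9 CPM against 103 and 79.5 CPM, with shYthdf2 replicate 2 only just above the controls (log2 fold change 0.33, SE 0.14, edgeR adjusted p = 0.226). Tfap2a was at 4.97 and 5.24 CPM against 6.87 and 7.40 CPM, higher in both knockdown libraries (log2 fold change 0.48, adjusted p = 0.27). Neither passed the threshold.

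Among the regulators that define trophoblast stem cells, Cdx2 and Elf5 were near the limit of detection, while Eomes, like Gata3 and Tfap2a, was well above it. Eomes, a T-box factor also active in the primitive streak, was at 21.3 and 20.2 CPM in shScramble and 19.3 and 15.2 CPM in shYthdf2 (log2 fold change -0.26, edgeR adjusted p = 0.43), so that shYthdf2 replicate 1 stood close to the controls. Cdx2, the homeobox gene that fixes the trophectoderm fate, had 8 and 6 reads in shScramble and 14 and 12 in shYthdf2 (log2 fold change 0.84, SE 0.72, adjusted p = 0.56). Elf5, which locks in the trophoblast stem cell state, was read 0 and 4 times against 4 and 2 times. Elf5 was not tested, and at this depth the values do not settle whether Cdx2 or Elf5 differed.

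**Figure D2:**
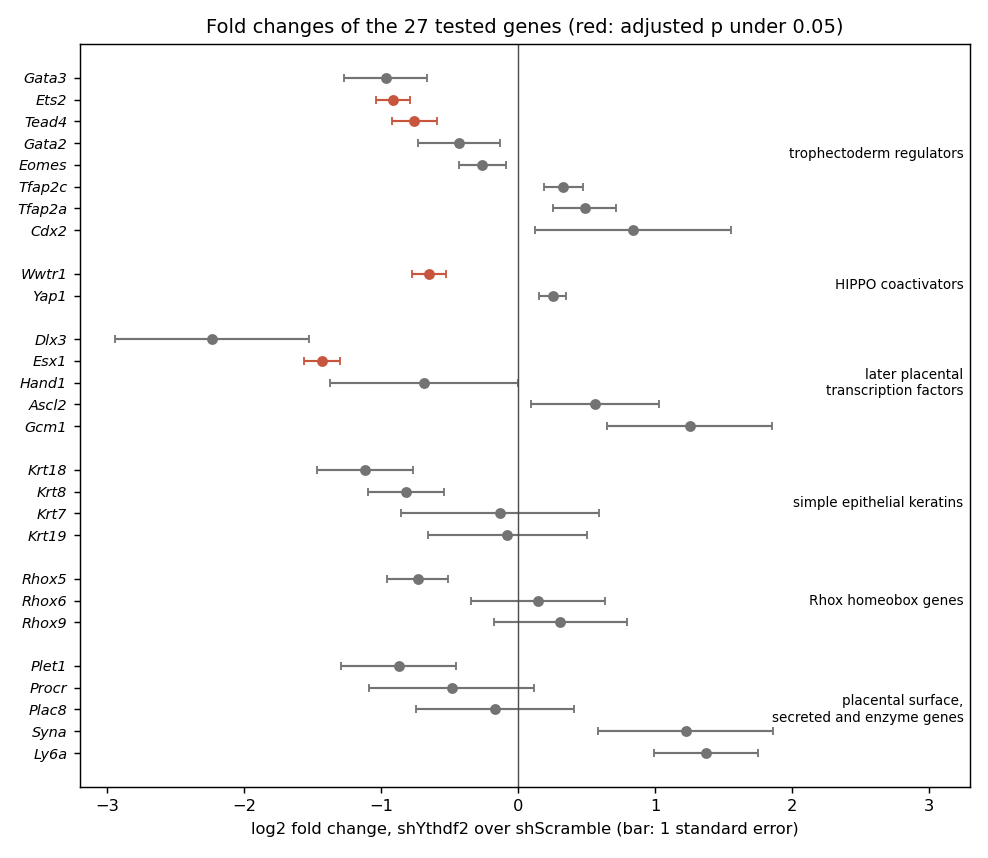
Log2 fold changes of shYthdf2 over shScramble for the 27 tested genes, ordered within 6 subgroups, with bars of 1 standard error derived from edgeR's F statistic. The genes with an adjusted p under 0.05, drawn in red, are Ets2, Tead4, Wwtr1 and Esx1, all left of zero, and the widest bars belong to genes of few reads such as Krt7 and Cdx2.

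Of the pair of HIPPO coactivators, Wwtr1 was lower and Yap1 was not called. Wwtr1, which encodes TAZ, had 3002 and 3141 reads in the controls and 1874 and 2208 in the knockdown, or 83.4 and 99.7 CPM against 54.8 and 61.7 CPM. Both knockdown libraries lay below both controls. The means were 91.5 ± 11.6 and 58.3 ± 4.87 CPM (SD, n = 2), or -0.65 on the log2 scale (SE 0.13, edgeR adjusted p = 0.0266). The call was lost without shScramble replicate 2, the higher control, where the log2 fold change was -0.52 and the adjusted p 0.067. Wwtr1 occupies positions 57455644 to 57575910 of chromosome 3, minus strand.

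Yap1, which encodes the related coactivator YAP, was at 217.9 and 212 CPM in shScramble and 250.2 and 261 CPM in shYthdf2. The knockdown libraries were both above the controls, by a log2 fold change of 0.25 that did not pass (SE 0.10, edgeR adjusted p = 0.19), in any of 13 other settings either. Per base of exon, Wwtr1 stood at 0.354 and 0.435 of the Yap1 level in the controls and at 0.203 and 0.219 in the knockdown, means of 0.394 ± 0.058 and 0.211 ± 0.011 (SD, n = 2). The 2 groups of ratios did not overlap, which follows from the lower Wwtr1 and higher Yap1 levels in both knockdown libraries. The smallest two-sided p of an exact permutation test of 2 libraries against 2 is 0.333, and such single values are given without one.

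The other TEAD genes encode DNA-binding partners that YAP and TAZ share with TEAD4. Tead1 was at 243 and 247 CPM against 189.8 and 221 CPM (log2 fold change -0.25, edgeR adjusted p = 0.23). Tead2, the most highly expressed of the HIPPO list per length in shScramble, was at 159.7 and 189.7 CPM against 159.0 and 157 CPM (log2 fold change -0.14, adjusted p = 0.52), and Tead3 was at 5.30 and 5.17 CPM against 5.56 and 6.12 CPM. Tead4 made up 15.4% and 14.2% of the summed per-base level of the 4 TEAD genes in shScramble and 8.75% and 11.7% in shYthdf2. These groups did not overlap, as in the Tead4 levels themselves.

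**Figure D3:**
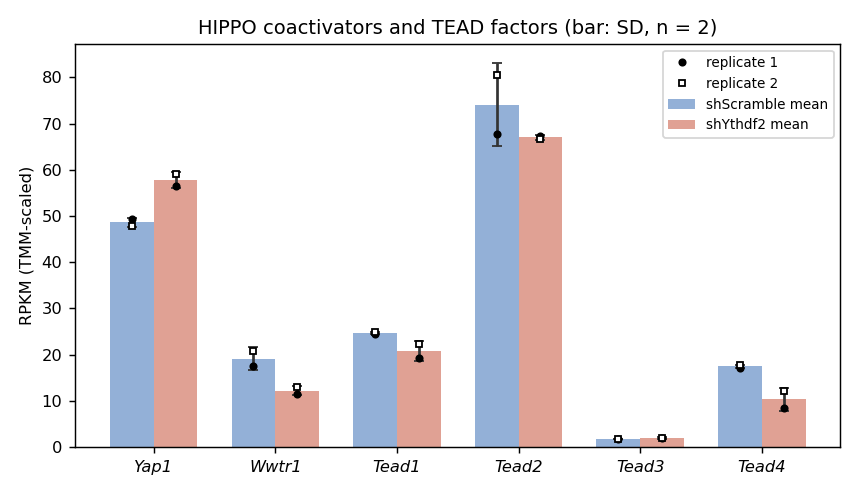
Levels per kilobase of exon (TMM-scaled RPKM) of the coactivator genes Yap1 and Wwtr1 and of Tead1 to Tead4, as group means with SD (n = 2) and 1 point per library. Wwtr1 and Tead4 are lower in both shYthdf2 libraries, Yap1 is slightly higher, and the bars of Tead2 reach into each other.

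Among the later transcription factors of the placenta, 5 of 6 were tested and Esx1 was lower, beside 1.49% of all genes tested. Esx1, an X-linked homeobox gene of the placental labyrinth and the male germline, had 1768 and 1642 reads in the controls and 672 and 636 in the knockdown, or 49.1 and 52.1 CPM against 19.7 and 17.8 CPM. Its libraries were close within each group and far apart between them. The means were 50.6 ± 2.14 and 18.7 ± 1.33 CPM (SD, n = 2), a level 2.70-fold lower in the fit, or -1.44 on the log2 scale (SE 0.13, edgeR adjusted p = 0.0015), and by p-value it ranked at position 10 of all 18341 genes tested. It passed in all 13 other settings, between -1.51 and -1.36. Esx1 occupies positions 137115397 to 137122131 of chromosome X, minus strand.

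The remaining placental factors were read rarely. Dlx3, a homeobox gene needed for the labyrinth, had 18 and 45 reads in shScramble and 8 and 6 in shYthdf2, a log2 fold change of -2.24 with a wide error (SE 0.71, edgeR adjusted p = 0.112). The controls themselves differed from each other more than the lower one differed from the knockdown, and leaving out shScramble replicate 1 or 2 gave -2.81 or -1.30. With all 4 libraries kept, Dlx3 passed with no filter and with the replicate number as a block, and not with other scalings or limma-voom. Gcm1, the factor that starts syncytiotrophoblast formation, had 10 and 20 reads against 26 and 50 (log2 fold change 1.25, edgeR adjusted p = 0.27), higher in both knockdown libraries without passing the threshold. Ascl2, needed for the spongiotrophoblast, was at 0.833 and 1.71 CPM against 2.34 and 1.40 CPM, and Hand1, needed for giant cells, had 24 and 11 reads against 14 and 8. The groups overlapped in both. Dlx5 had at most 4 reads in a library.

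Keratins 7, 8, 18 and 19 form the filaments of simple epithelia such as the trophectoderm, and KRT8 pairs with KRT18. None of the 4 genes passed the threshold, although Krt8 and Krt18 were separated between the groups. Krt8 was at 7.75 and 5.90 CPM in shScramble and 4.53 and 3.21 CPM in shYthdf2 (log2 fold change -0.82, SE 0.28, edgeR adjusted p = 0.134). Krt18 was at 4.08 and 2.95 CPM against 1.93 and 1.31 CPM (log2 fold change -1.12, SE 0.35, edgeR adjusted p = 0.11). In both genes replicate 2 was the lower library of its group. With all 4 libraries kept, Krt18 passed with no filter and with the replicate number as a block, and Krt8 only with the block. The ratio of Krt8 to Krt18 per base was 1.47 and 1.55 in the controls and 1.82 and 1.90 in the knockdown. A pseudogene shares 8.51% of the 150-base windows of the Krt8 transcript. Reads placed equally well on both would have been left out of the count, an effect that was not measured. Krt19 was at 0.75 and 1.33 CPM against 1.46 and 0.503 CPM, and Krt7 had 8 to 16 reads in every library, and in neither did the groups separate.

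The Rhox genes are a cluster of reproductive homeobox genes on the X chromosome, several of them active in placenta. Rhox5, the founding member, was at 125 and 102 CPM in shScramble and 87.7 and 49.1 CPM in shYthdf2, with a log2 fold change of -0.73 that missed the threshold (SE 0.22, edgeR adjusted p = 0.101). The knockdown libraries were below both controls but far apart, and the value was -0.38 without shYthdf2 replicate 2 and -1.21 without shYthdf2 replicate 1. With all 4 libraries kept, Rhox5 was called with no filter and with the replicate number as a block, and in no other setting. Rhox6 was at 1.06 and 0.921 CPM against 1.46 and 0.727 CPM, and its close relative Rhox9 at 1.00 and 0.952 CPM against 1.64 and 0.782 CPM, with the controls between the knockdown libraries in both. The other Rhox genes of the table numbered 39, of which 14 were tested and 0 called, with 5 lower at an unadjusted p under 0.05 (9.8% of all genes) and a median log2 fold change of -0.96. They summed to 43.1 and 30.6 CPM in shScramble and 32.7 and 14.8 CPM in shYthdf2, so that the libraries numbered 2 were lower in each group, as in Rhox5. Rhox13, the highest of them, was at 17.0 and 12.9 CPM against 14.7 and 7.85 CPM (log2 fold change -0.41, edgeR adjusted p = 0.45). These genes include near-identical copies whose reads the counting may have left out. Rhox5, Rhox6 and Rhox9 are each annotated a second time on an extra contig, as Ets2 is. Reads lost from them in this way were not measured. With Esx1 and Plac1, 5 of the 34 genes lie on the X chromosome, where 25 of 737 tested genes (3.39%) were lower and 9 higher, beside 1.49% and 2.43% of all genes tested.

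The last group holds surface, secreted and enzyme genes of the placenta. Of these 5 of 10 were tested and 0 called, beside 1.49% lower and 2.43% higher among all genes tested. Ly6a, which encodes the surface protein SCA-1 best known from blood stem cells, was at 5.39 and 3.84 CPM in shScramble and 16.9 and 6.96 CPM in shYthdf2. Both knockdown libraries were above the controls, but replicate 1 far more so. Its log2 fold change of 1.37 missed the threshold (SE 0.38, edgeR adjusted p = 0.077) and was 0.59 without shYthdf2 replicate 1. With all 4 libraries kept, Ly6a passed with no filter, with DESeq2 and with the replicate number as a block. Plet1, a surface protein of trophoblast progenitors, was at 1.44 and 2.60 CPM against 1.05 and 1.15 CPM (log2 fold change -0.87, edgeR adjusted p = 0.28). Syna, which encodes the membrane fusion protein syncytin A, had 8 and 10 reads against 25 and 19 (log2 fold change 1.22, adjusted p = 0.32). Plac8 and Procr overlapped between the groups at 14 to 40 reads. Sct had 4 to 18 reads, and Plac1 had 2 and 4 reads in the controls and none in the knockdown, too few to compare.

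By the criteria of the study, an unadjusted p of at most 0.05 and at least a 2-fold change in DESeq2, 3 of the 31 genes with a p were lower (Esx1, Dlx3 and Krt18) and Ly6a was higher, beside 1.25% lower and 1.63% higher among 30565 genes. Ets2, Wwtr1 and Tead4 changed by less than 2-fold and were outside these criteria.

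The upstream part of the HIPPO pathway and the other TEAD genes were covered by a list of 20 genes, all of them tested. One of them, Frmd6, was lower, and 0 were higher, beside 1.49% and 2.43% of all genes tested. Frmd6, a FERM domain protein that acts upstream of the kinases, was at 42.3 and 44.2 CPM in shScramble and 22.6 and 26.6 CPM in shYthdf2 (log2 fold change -0.81, SE 0.14, edgeR adjusted p = 0.0161). Its groups did not overlap. Ajuba, a LIM protein that restrains the LATS kinases and the highest of the list per length over both groups, was at 232 and 169.7 CPM against 331 and 279.7 CPM (log2 fold change 0.60, adjusted p = 0.06). At an unadjusted p under 0.05, 7 of the 20 were lower and 2 higher, beside 9.8% and 11.0% of all genes, and the median log2 fold change was -0.13.

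Genes known to be switched on by YAP and TEAD were called in both directions. Of 18 listed, 16 were tested, 2 were higher and 1 lower, beside 2.43% and 1.49% of all genes tested, with a median log2 fold change of 0.25. Ptpn14, a phosphatase that also restrains YAP, was at 100.3 and 84.0 CPM in shScramble and 160.6 and 169 CPM in shYthdf2 (log2 fold change 0.84, SE 0.12, edgeR adjusted p = 0.0079). Dock5, an activator of RAC, was at 128 and 125 CPM against 168 and 183 CPM (log2 fold change 0.48, adjusted p = 0.0385). The Dock5 call was lost without either control library. F3, which encodes tissue factor, was at 8.77 and 10.6 CPM against 3.8 and 4.14 CPM (log2 fold change -1.29, SE 0.23, adjusted p = 0.0209). The classic targets were not called, with Ccn1 at a log2 fold change of 0.14 and Ccn2 at -0.35, and Amotl2, the highest of the list per length over both groups though not in shScramble alone, at 0.45 (adjusted p = 0.062).

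**Figure D4:**
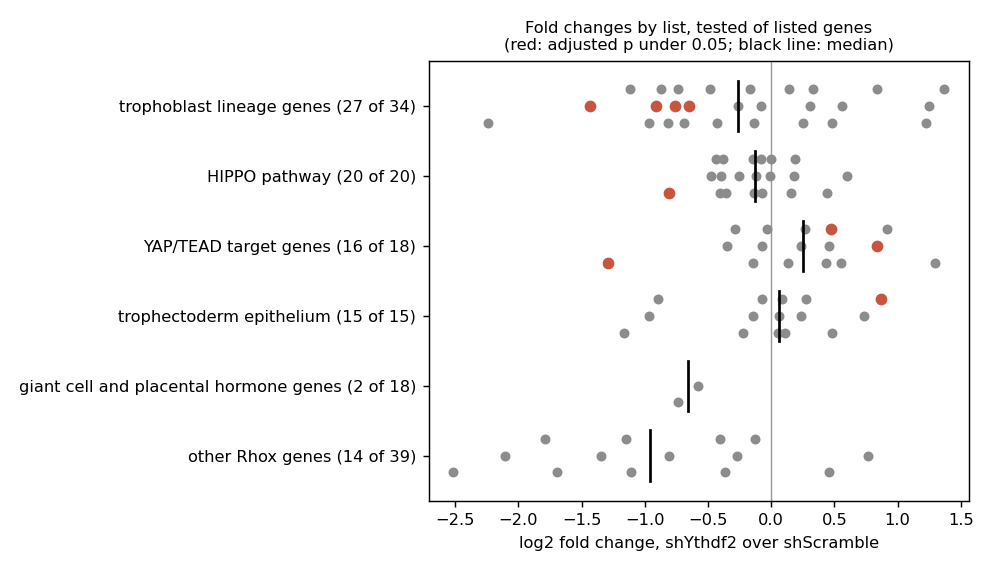
Log2 fold changes of shYthdf2 over shScramble for the trophoblast lineage genes and 5 related lists, 1 point per tested gene, with the number tested of those listed on the axis. Medians (black lines) lie at -0.26 for the trophoblast genes, -0.13 for the HIPPO pathway and 0.25 for YAP/TEAD target genes, and points in red have an adjusted p under 0.05.

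Genes of the epithelium that the trophectoderm builds were called in 1 of 15 cases, all tested, beside 2.43% of all genes higher and 1.49% lower. Gjb5, a connexin of the placenta, was higher, at 18.7 and 15.4 CPM in shScramble and 34.1 and 28.3 CPM in shYthdf2 (log2 fold change 0.87, SE 0.17, edgeR adjusted p = 0.0253). The highest of this list per length over both groups was Fabp3, a fatty acid binding protein, with a log2 fold change of 0.05, and the median was 0.07. Of 18 genes of giant cells and placental hormones, 12 had no read and only Flt1 and Mdfi were tested. Mdfi, an inhibitor of MyoD family factors expressed in giant cells, was at 4.94 and 5.68 CPM against 3.45 and 3.66 CPM (log2 fold change -0.58, edgeR adjusted p = 0.24), so neither gene was called.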

How the data were processed

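The authors deposited raw read counts per gene for the 4 libraries. RNA was poly(A) selected and sequenced from both ends. Per the file headers, featureCounts 2.0.3 counted exons of the mm10 RefSeq annotation, without the option that counts pairs, so both reads of a fragment were counted, and without a strand option. The submitters' processing notes also name fastp 0.19.4, HISAT2 2.2.1 and DESeq2 1.40.2. Reads with several placements were left out by default, which lowers genes with near-identical copies.

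Groups and replicate numbers came from sample titles. All counts entered edgeR 4.0.16 (R 4.3.3; TMM, filterByExpr with minimum count 10 and minimum total 15, quasi-likelihood F test, two-sided, no covariate, Benjamini-Hochberg over 18341 genes, which held 99.9% of reads). The biological coefficient of variation was 15.8%. The script was tested on simulated counts. RPKM was TMM-scaled CPM per kilobase of exons on the main chromosome. Promoter sequences were from RefSeq. The genes, lists and tests were chosen with earlier results of these data known. Named genes were all members, plus called and highest genes (per length) of each list. The other TEAD genes, Ccn1 and Ccn2 were named after their values were seen. Alternatives were other scalings, filters, halved counts, DESeq2 1.42.0, limma-voom (limma 3.58.1), a replicate block and leaving out each library. Floors cover counting error only. The SDs, and the SEs derived from edgeR's F statistic, include the spread between libraries. The p-values set a difference against the spread between these libraries as estimated in the fit. Columns of other per-sample values numbered 0.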

Additional observations from a re-analysis of the deposited data

How the results depend on the processing

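As reported, 4 genes were called (Esx1, Ets2, Wwtr1, Tead4), and 4 with each other scaling, with a mean of at least 1 CPM, with halved counts and with limma-voom. DESeq2 gave 5 (1 higher) and no filter 8 (1 higher, 7 lower). Leaving out 1 library leaves 1 in its group, whose spread then does not enter the test. Passing in such a fit is therefore not a check of a call. Over all genes, 718 calls became 1938 with no filter, 1402 with DESeq2 and 834 to 2288 without 1 library (1284 and 834 without shScramble replicates 1 and 2, 1164 and 2288 without shYthdf2 replicates 1 and 2). With the replicate number as a block, 11 trophoblast genes (2 higher, 9 lower) and 3525 genes in all were called. The samples share only a number: same-numbered deviations correlated at 0.317, and the labels name no shared batch. The median log2 fold change of the tested genes stayed between -0.45 and -0.26, and Ythdf2 passed in all 13 settings, between -1.59 and -1.50.

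Of 333 values of single genes, 300 kept direction and side of the threshold, 23 passed newly, and 1 (Wwtr1) no longer passed. The other 9, in 6 genes never called, changed sign when 1 library was left out. Over the 4 such fits Krt7 ranged from -0.62 to 0.56 (also 0.07 without shYthdf2 replicate 2), Krt19 from -1.04 to 0.50 (also 0.38 without shScramble replicate 2), Rhox6 from -0.44 to 0.56, Rhox9 from -0.32 to 0.74, Plac8 from -0.78 to 0.25 (also 0.13 without shScramble replicate 1) and Procr from -1.01 to 0.32. The cause was not tested. With 2 libraries per group, the precision of genes with few reads is low.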
